A study of Homo sapiens with 6 samples.

Results

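The S100 and epidermal differentiation complex genes were followed in RNA-seq of U-2 OS cells, a human osteosarcoma line, after knock-down of SFPQ, an RNA- and DNA-binding protein of the nucleus. Members were taken by gene class and symbol alone: protein-coding genes whose symbol starts with S100, SPRR, LCE or FLG, together with HRNR, RPTN, TCHH, TCHHL1, IVL, CRNN and LORICRIN. This gave 60 genes among the 60664 in the count table, namely 20 S100 genes, 7 S100 fused-type genes, IVL and LORICRIN, 11 SPRR genes, 19 LCE genes and S100PBP. S100PBP enters through its symbol and encodes a protein that binds S100P, not an S100 protein.

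Cells received control siRNA (siControl) or siRNA against SFPQ (siSFPQ), in 3 libraries of each condition. The protocol given with all 6 libraries is lipid transfection at 30 nM, and it names the SFPQ siRNA only. All 6 libraries came from the same line, whose labels name bone and a polyploid genotype, so that each value describes a single tumour line. The labels do not give the time from transfection to lysis or say whether the silencing used a single siRNA or a pool. The study describes the libraries as biological triplicates, and p-values measure the spread between them.

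Reads counted on genes summed to 46142855, 47119203 and 46830736 in siControl replicates 1, 2 and 3 and to 43469321, 45511855 and 45543610 in siSFPQ replicates 1, 2 and 3. At these depths 3 counts, the level that a count of 0 still allows, are worth between 0.0642 and 0.0676 CPM (counts scaled to a common library total after TMM normalization), counting error only. The number of genes with at least 1 count was 28379, 30986 and 31289 in siControl and 32700, 32690 and 32584 in siSFPQ. More genes were thus detected in each siSFPQ library at a lower total, and siControl replicate 1 had the fewest. This difference in detection moves with the condition, and its part in the values of genes near 0 was not tested.

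S100 proteins are small EF-hand proteins that bind calcium, mostly as dimers, and then attach to partners such as annexins, while some are secreted and act on receptors on other cells. Most of their genes sit beside the epidermal differentiation complex, a cluster on the long arm of chromosome 1 whose products build the outer barrier of the skin. In that barrier involucrin forms the first scaffold of the cornified envelope, loricrin and the small proline-rich (SPRR) and late cornified envelope (LCE) proteins are cross-linked onto it, and the fused-type proteins, which join an S100 domain to long repeats, bundle keratin or harden the cell. Bone cells do not form such an envelope, whereas several S100 proteins are abundant in mesenchymal and tumour cells.

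SFPQ itself had 22338, 23139 and 21753 counts in siControl and 3140, 3863 and 3151 counts in siSFPQ. The targeted transcript was low in every library labelled siSFPQ (log2 fold change -2.73, standard error (SE) 0.05, adjusted p = 6.33e-30). Tests are those of edgeR (quasi-likelihood), with p-values adjusted by the Benjamini-Hochberg method over all genes tested. Fold changes here are always siSFPQ against siControl. A gene "rose" or "fell" where the adjusted p was under 0.05, and it was called higher or lower where the log2 fold change was also over 1.5 or under -1.5. Genes with at least 10 counts over the 6 libraries were tested, 29022 in all.

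Expressed S100 genes mostly rose after SFPQ depletion, S100A2 fell, and among the barrier genes FLG, FLG2, HRNR and IVL rose while TCHH and LORICRIN fell. A large share of the members was close to silent: 20 had no count in any library and 34 had at most 3 counts in every library. Of the 60 members, 25 passed the count minimum, and among them 15 rose, 4 fell and 6 did not pass the test. Over all genes tested 22.4% rose and 22.1% fell. All members are protein-coding. Of the 16477 protein-coding genes among those tested, 4620 rose, 5094 fell, 540 were called higher and 819 lower. The members called higher were FLG2, IVL and S100A14, or 3 of 25, against 5.54% of all genes tested. The only member called lower was CRNN (10 counts in all), against 4.77%. CRNN passed the count minimum only through siControl, where it is high. Its fall and its call are therefore no result about the members.

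After scaling to library size, the counts of all siSFPQ libraries lay above those of all siControl libraries for 16 tested members, against 26.9% of all genes tested, and below them for 4, against 25.4%. Groups overlapped for the other 5. LCE1E is among the 16 only by that scaling, since its raw counts touch at 13. S100P is also among the 16, and it passed the count minimum only through siSFPQ. CRNN, among the 4, passed it only through siControl. The separation of S100P and CRNN is therefore no result about the members. The median log2 fold change of the tested members was 0.70 (0.52 with genes near 0 set to their bounds against 3 counts), beside 0.02 over all genes tested. Both medians include S100P, CRNN and SPRR2D, the last of which also met the count minimum only through siSFPQ. The value of 0.52 is the bound of S100P itself. The median was 0.38 over the tested members whose exons overlap no other gene. Over members with a mean of at least 1 CPM it was 0.38. Over tested members under 1 CPM, where S100P, CRNN and SPRR2D lie, it was 1.07 (0.70 with the bounds). All tested genes at those levels had medians of -0.02 and 0.17 (0.15 with the bounds). The shares above also differed with the level of the genes. Among the 14 members with a mean of at least 1 CPM, 10 rose and 3 fell, where 30.1% and 34.5% of all tested genes at that level did. Of these only FLG2 was called higher (1.77% of such genes) and none lower (4.15%). FLG2 reaches that level through siSFPQ alone (0.153 CPM in siControl and 2.78 in siSFPQ). TCHH (2.06 and 0.976 CPM) and LORICRIN (1.26 and 0.749), which fell, are over 1 CPM in siControl alone. The change itself thus helped to place these 3 members, and their direction is no result about genes of that level. At that level 11 lay fully above and 3 fully below siControl (32.7% and 36.9%). Among the 11 tested members under 1 CPM, 5 rose and 1 fell, against 13.5% and 7.71%. IVL and S100A14 were the 2 called higher there (9.95%) and CRNN the 1 called lower (5.49%). After the same scaling 5, LCE1E and S100P included, lay fully above and 1, CRNN, fully below siControl (20.0% and 12.0%). In RNA from whole cultures, a change in a few cells and a smaller change in each cell cannot be told apart.

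**Figure D1:**
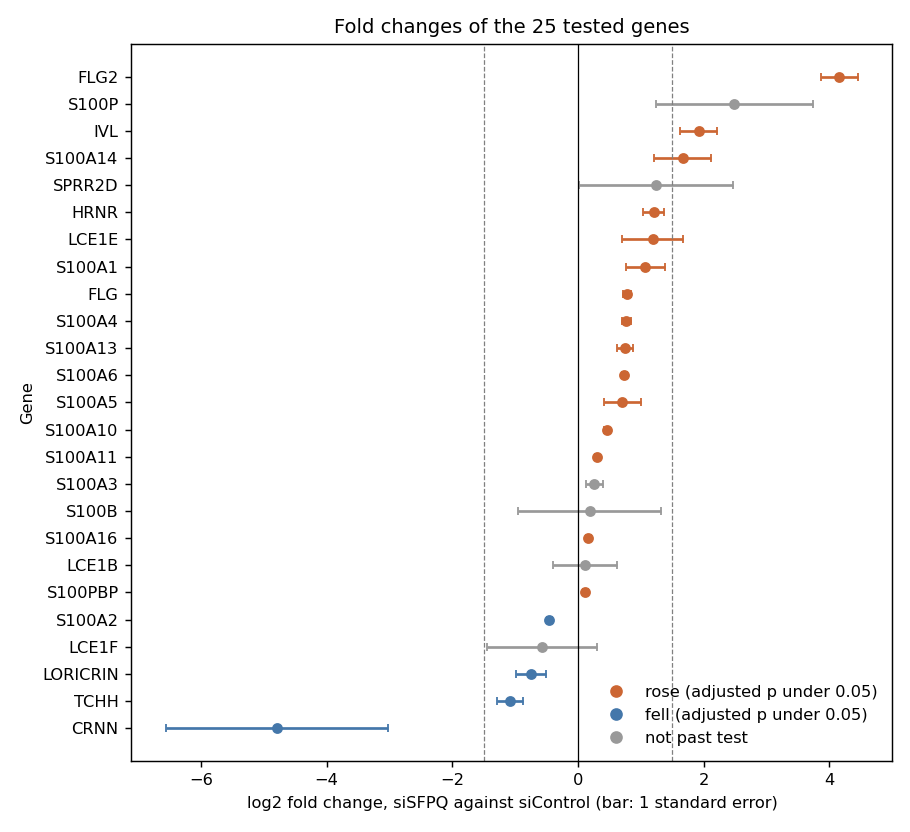
Log2 fold change of each of the 25 tested genes (points; x axis, siSFPQ against siControl) with 1 standard error (bars), ordered by size; dashed lines mark the thresholds of 1.5 and -1.5. Orange marks the 15 genes that rose, blue the 4 that fell and grey the 6 that did not pass the test, and the widest bars belong to genes with few counts such as CRNN, S100P, SPRR2D and S100B.

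The promoters of 6 genes are shown, because these genes share a neighbourhood but not a direction: FLG2, FLG, HRNR and IVL rose, TCHH fell, and S100A11 is an abundant S100 gene. Each line gives the 150 bases before the annotated start on the gene's own strand (RefSeq, GRCh38.p14), a stretch that overlaps no annotated exon. Capitals mark exact matches to TGANTCA, the letters that AP-1 factors recognise, to GGGCGG, the GC box, and to TATAA within 50 bases before the start.
FLG2: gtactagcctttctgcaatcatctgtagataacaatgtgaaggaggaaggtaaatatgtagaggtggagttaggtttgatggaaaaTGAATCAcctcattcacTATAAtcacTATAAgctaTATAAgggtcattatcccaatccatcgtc
FLG: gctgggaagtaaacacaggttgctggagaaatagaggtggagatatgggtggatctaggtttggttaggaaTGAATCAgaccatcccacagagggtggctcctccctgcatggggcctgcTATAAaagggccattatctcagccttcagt
HRNR: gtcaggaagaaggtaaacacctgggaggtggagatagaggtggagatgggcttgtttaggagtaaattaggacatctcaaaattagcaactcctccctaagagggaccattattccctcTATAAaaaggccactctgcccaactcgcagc
TCHH: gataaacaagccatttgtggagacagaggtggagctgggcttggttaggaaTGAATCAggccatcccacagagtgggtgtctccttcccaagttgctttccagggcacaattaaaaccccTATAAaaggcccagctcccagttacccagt
IVL: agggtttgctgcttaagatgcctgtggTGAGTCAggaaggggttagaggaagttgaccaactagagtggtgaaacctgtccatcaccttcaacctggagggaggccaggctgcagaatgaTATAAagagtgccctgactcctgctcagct
S100A11: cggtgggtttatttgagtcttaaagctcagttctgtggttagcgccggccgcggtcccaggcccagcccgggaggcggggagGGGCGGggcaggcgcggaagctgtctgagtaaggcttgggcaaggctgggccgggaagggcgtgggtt

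These stretches lie at chr1:152360007-152360156 (FLG2), chr1:152325240-152325389 (FLG), chr1:152224194-152224343 (HRNR), chr1:152115445-152115594 (TCHH), chr1:152037005-152037154 (S100A11) on the minus strand and at chr1:152908396-152908545 (IVL) on the plus strand. The first base of TGANTCA stands 64 bases before the start in FLG2, 79 in FLG, 99 in TCHH and 123 in IVL. TATAA begins 30 or 31 bases before the start in FLG, HRNR, TCHH and IVL, and FLG2 has 3 copies that begin 47, 38 and 29 bases before it. S100A11 has neither, but a GC box that begins 68 bases before its start. FLG and TCHH share a run of 19 bases around the match to TGANTCA, ttggttaggaatgaatcag, the longest run shared by any pair of the 6 stretches, although FLG rose and TCHH fell. In the window of 300 bases around the start (250 before, 50 after), S100A11 has 22 CpG and the barrier genes shown have between 0 (IVL) and 3 (TCHH).

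RefSeq windows were matched for 56 of the 60 members, and a gene with several starts counts where any of its windows holds a match, while shares of all promoters are per window. TGANTCA (read on both strands, which give the same letters) was in a window of 19 of the 56 genes, against 7.71% of all 35116 promoter windows. Among tested members it was found at CRNN, FLG, FLG2, IVL, LORICRIN, S100A2, S100A3, S100A5, S100PBP and TCHH, so both rising and falling genes carried it. TATAA on the gene's strand within 50 bases before the start was in 35 of the 56 genes, against 4.74% of windows. GGGCGG on either strand was in 9 of them, against 45.0% of windows, and 7 of the 9 are tested genes, among them S100A6, S100A10, S100A11 and S100A16. The letters of these motifs do not overlap each other in the stretches shown. A window holds a median of 14 CpG over all promoters and of 2 over those of the members at 3 counts or fewer. Over the 7 windows of members with a mean of at least 100 CPM the median is 8, from 3 to 32, and S100A11 lies above that median. A match is a description of the letters and not a measured binding site.

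Of the 20 S100 genes 13 were tested, 9 rose and 1 fell (22.4% and 22.1% of all genes tested). The bulk of their RNA came from 5 members: S100A11, S100A10, S100A6, S100A2 and S100A16. Levels between genes were compared as CPM per kilobase of exons. On that scale S100A11 stood at 285 ± 4.17 (SD, n = 3 here and for every mean below) in siControl and S100A10 at 257 ± 9.02, ranges that did not overlap. S100A6 (126 ± 7.11), S100A2 (121 ± 9.75) and S100A16 (110 ± 2.15) followed. S100A6 and S100A2 overlapped, and S100A16 lay just below the lowest library of S100A2. S100A4 was lower, at 12.8 ± 0.962. The order of S100A11 and S100A10 depends on the length used: with the longest transcript in place of all exons, S100A10 held 30.5% and S100A11 25.9% of the summed S100 level in siControl.

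In siSFPQ the composition was different. S100A10 (352 ± 10.8 CPM per kilobase) and S100A11 (351 ± 13.4) overlapped, S100A6 reached 209 ± 10.5, S100A16 123 ± 5.61, and S100A2, at 88.2 ± 2.61, dropped to the fifth place. With the longest transcript in place of all exons, S100A10 and S100A11 did not overlap. On that length they held 33.3% and 25.4% of the summed S100 level in siSFPQ. As a share of the summed level per kilobase, S100A6 went from 13.7% to 18.1% and S100A2 from 13.2% to 7.64%, with S100A11 at 31.1% and 30.4%. The summed S100 level, counted in CPM without division by length, was 960 ± 33.9 in siControl and 1165 ± 42.0 in siSFPQ, and the ranges of the libraries did not overlap.

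**Figure D2:**
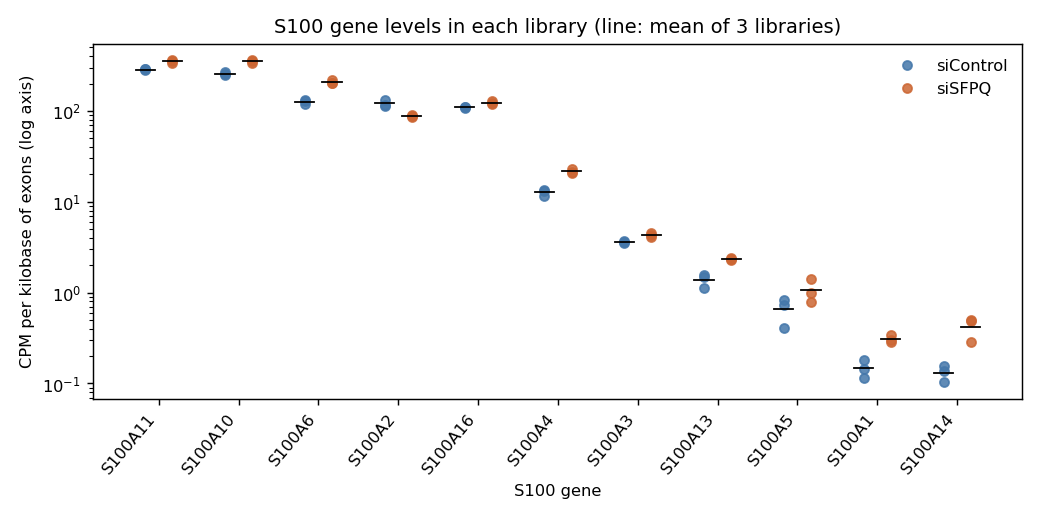
Level of the 11 S100 genes with the most reads in each library, as CPM per kilobase of exons (y axis, log scale); points are libraries, blue for siControl and orange for siSFPQ, and lines are means of 3. S100A2 is the only gene in the plot whose siSFPQ points lie below its siControl points, and S100A5 is the only one whose points overlap between conditions.

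The annexin partners of the family rose by modest amounts. S100A10, which pairs with annexin A2 at the membrane and does not need calcium for it, had 11813, 11496 and 12294 counts in siControl and 16065, 16077 and 16860 in siSFPQ. The siSFPQ libraries stood well clear of the siControl libraries (log2 fold change 0.46, SE 0.04, adjusted p = 2.82e-12). S100A11, a calcium-dependent partner of annexin A1, had 8492, 8326 and 8539 counts in siControl and 10192, 10210 and 10918 in siSFPQ. It also separated, with a smaller log2 fold change of 0.30 (SE 0.04, adjusted p = 3.68e-08).

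S100A6 and S100A4, near neighbours in the cluster that are often high in proliferating and motile cells, changed more. S100A6 (calcyclin) had 5642, 5238 and 5842 counts in siControl and 8836, 9153 and 9967 in siSFPQ, and its lowest siSFPQ library was far above its highest siControl library. Its log2 fold change was 0.74 (SE 0.04, adjusted p = 4.02e-16). S100A4, which binds non-muscle myosin, had 566, 506 and 584 counts in siControl and 900, 928 and 1007 in siSFPQ. No library crossed between conditions, and the log2 fold change was 0.77 (SE 0.07, adjusted p = 1.22e-10).

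S100A2 was the S100 gene that fell. It is best known from the basal layer of stratified epithelia and was as high per kilobase as S100A6 in siControl, with 8080, 8253 and 9336 counts, against 6046, 6193 and 6518 in siSFPQ. siControl replicate 3 was the highest, and all siSFPQ libraries lay below all siControl libraries. The log2 fold change was -0.46 (SE 0.04, adjusted p = 1.38e-10), and it lay between -0.50 and -0.39 with single libraries left out. S100A16, a widely expressed member next to S100A2 in the cluster, had 8333, 8641 and 8613 counts in siControl and 9213, 9370 and 10173 in siSFPQ. Its rise was slight, at a log2 fold change of 0.16 (SE 0.04, adjusted p = 6.78e-04).

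Of the S100 genes at middle levels, S100A3, known from the hair cuticle, had 135, 142 and 139 counts in siControl and 170, 162 and 166 in siSFPQ. Its libraries separated, but the log2 fold change of 0.26 (SE 0.13) did not pass the test (adjusted p = 0.127). S100A13, which takes part in the release of proteins that lack a signal peptide, had 160, 114 and 149 counts in siControl and 238, 234 and 239 in siSFPQ, a rise of 0.74 on the log2 scale (SE 0.13, adjusted p = 1.45e-05). S100A1, a muscle member transcribed from the opposite strand, had 16, 20 and 25 counts in siControl and 40, 49 and 40 in siSFPQ, with a log2 fold change of 1.07 (SE 0.31, adjusted p = 4.57e-03). These 2 genes overlap: 33.5% of the exon bases of S100A13 and 18.3% of those of S100A1 are shared with exons of another gene. The strand setting of the counting is not given in the sources used here, so how the shared reads were assigned is uncertain.

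S100A14, an epithelial member, was the S100 gene called higher. Its counts were 8, 6 and 9 in siControl and 28, 29 and 17 in siSFPQ. The conditions did not overlap, although siSFPQ replicate 3 was lower than the others, and the log2 fold change was 1.67 (SE 0.45, adjusted p = 2.86e-03), between 1.52 and 1.89 with single libraries left out. S100A5, described in olfactory neurons, had 34, 19 and 39 counts in siControl and 36, 68 and 47 in siSFPQ. Here the conditions overlapped, since siSFPQ replicate 1 lay below siControl replicate 3, and the rise of 0.70 (SE 0.29, adjusted p = 0.049) was just inside the threshold. It was lost under several alternatives, among them DESeq2 and leaving out siControl replicate 1 or 2 or siSFPQ replicate 2 or 3.

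The S100 genes of inflammation were silent. S100A8 and S100A12, which neutrophils release as danger signals, and S100A7 and S100A7A, made by inflamed skin, had 0 counts in all 6 libraries. S100A9, the partner of S100A8 in calprotectin, had 0, 0 and 2 counts in siControl and 1, 0 and 0 in siSFPQ. Of 12 myeloid markers, 6 had more than 3 counts in any library, MPO was at 0 throughout, and the list summed to 1.23 ± 0.181 CPM in siControl and 1.47 ± 0.200 in siSFPQ, with PTPRC the most abundant in siControl (0.693 CPM) and ITGAM in siSFPQ (0.687). ITGAM (16, 3 and 1 counts in siControl and 39, 21 and 34 in siSFPQ) was the myeloid marker that rose, PTPRC the one that fell (log2 fold change -1.61), and LYZ, TYROBP and CSF3R had at most 3 counts in every library.

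Outside the cluster, S100P on chromosome 4, often found in carcinomas, had 0, 0 and 2 counts in siControl and 3, 6 and 4 in siSFPQ, and did not pass the test (adjusted p = 0.109). It met the count minimum only through siSFPQ. S100B on chromosome 21, a marker of glia and melanocytes, had between 0 and 5 counts in siControl and between 1 and 5 in siSFPQ (adjusted p = 0.917). The sign of its fold change turned when single libraries were left out. Of 10 melanocyte and glial markers all were tested, 4 rose and 1 fell (22.4% and 22.1% of all genes tested). MITF was the most abundant, and the list summed to 30.7 ± 0.844 CPM in siControl and 36.6 ± 2.54 in siSFPQ. SOX10, the factor that defines both lineages, had 4, 4 and 3 counts in siControl and 10, 23 and 6 in siSFPQ and rose, as did GFAP, ERBB3 and MLANA. MITF, a factor of the melanocyte lineage, fell by 0.28 (adjusted p = 0.00151), whereas TYR and DCT had at most 4 and 7 counts. The part of these markers in the S100B counts was not tested. S100Z on chromosome 5 had at most 1 count in any library, and S100G on chromosome X had none. S100PBP on chromosome 1, outside the cluster, had 2554, 2551 and 2602 counts in siControl and 2695, 2860 and 2817 in siSFPQ, a rise of 0.11 (SE 0.04, adjusted p = 0.0285) that did not pass without the count filter or without siControl replicate 2 or siSFPQ replicate 2.

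The fused-type genes of the granular layer contained the largest rise among the members. Of the 7 such genes 5 were tested, 3 rose and 2 fell (22.4% and 22.1% of all genes tested). FLG2 (filaggrin-2) had 6, 12 and 3 counts in siControl and 135, 130 and 117 in siSFPQ. Each siSFPQ library held at least 117 counts where no siControl library exceeded 12. Its log2 fold change was 4.16 (SE 0.30, adjusted p = 7.45e-14), and with single libraries left out it lay between 3.80 and 4.78. FLG, whose product filaggrin bundles keratin and is then broken down to the moisturising factor of the skin, had 800, 739 and 692 counts in siControl and 1244, 1273 and 1322 in siSFPQ. It was already the most abundant fused-type gene in siControl and rose by 0.78 on the log2 scale (SE 0.06, adjusted p = 3.80e-12).

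FLG overlaps the antisense gene FLG-AS1, which covers 12.4% of its exon bases and had 338, 316 and 385 counts in siControl and 704, 783 and 807 in siSFPQ (log2 fold change 1.14, SE 0.09, adjusted p = 2.72e-13). With the strand setting not given, reads on that shared stretch cannot be told apart. FLG2 and HRNR overlap no exon of another gene. HRNR (hornerin), a repeat protein close to filaggrin, had 90, 89 and 59 counts in siControl and 197, 175 and 177 in siSFPQ. siControl replicate 3 was the lowest, and the conditions were apart in every library (log2 fold change 1.20, SE 0.16, adjusted p = 1.37e-07). FLG, FLG2 and HRNR all contain long repeats, so that reads within them may be hard to place.

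Both other fused-type genes that were tested fell. CRNN passed the count minimum only through siControl, where it is high, so its fall is no result about these genes. TCHH (trichohyalin), which hardens the inner root sheath of the hair, had 91, 100 and 92 counts in siControl and 47, 45 and 42 in siSFPQ. It fell by 1.08 on the log2 scale (SE 0.20, adjusted p = 3.58e-05), with no overlap between the conditions. CRNN (cornulin), a protein of the oesophagus and upper epidermis, had 5, 4 and 1 counts in siControl and 0 in every siSFPQ library. Against a floor of 3 counts per library this is at least 1.11-fold lower, and its call (adjusted p = 0.0271) was absent, among other alternatives, with DESeq2 and whenever a siSFPQ library was left out, while with a stricter count filter or without any siControl library it had too few counts to be tested. TCHHL1 had at most 2 counts and RPTN at most 1, too few to be compared. The fused-type genes together summed to 20.3 ± 1.61 CPM in siControl and 35.7 ± 0.929 in siSFPQ, of which FLG made up 80.1% and 78.2%.

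The envelope scaffold genes moved in opposite directions. IVL (involucrin) had 13, 23 and 14 counts in siControl and 75, 61 and 55 in siSFPQ. The lowest siSFPQ library was well above the highest siControl library, and the log2 fold change was 1.92 (SE 0.29, adjusted p = 1.51e-06), between 1.77 and 2.22 with single libraries left out. LORICRIN (loricrin), in skin the main protein of the finished envelope, had 56, 61 and 56 counts in siControl and 33, 32 and 38 in siSFPQ. It fell by 0.75 on the log2 scale (SE 0.24, adjusted p = 0.0114). Per kilobase of exons, LORICRIN was the higher of the pair in siControl (1.01 CPM per kilobase against 0.169 for IVL), while in siSFPQ the levels were 0.602 and 0.648.

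**Figure D3:**
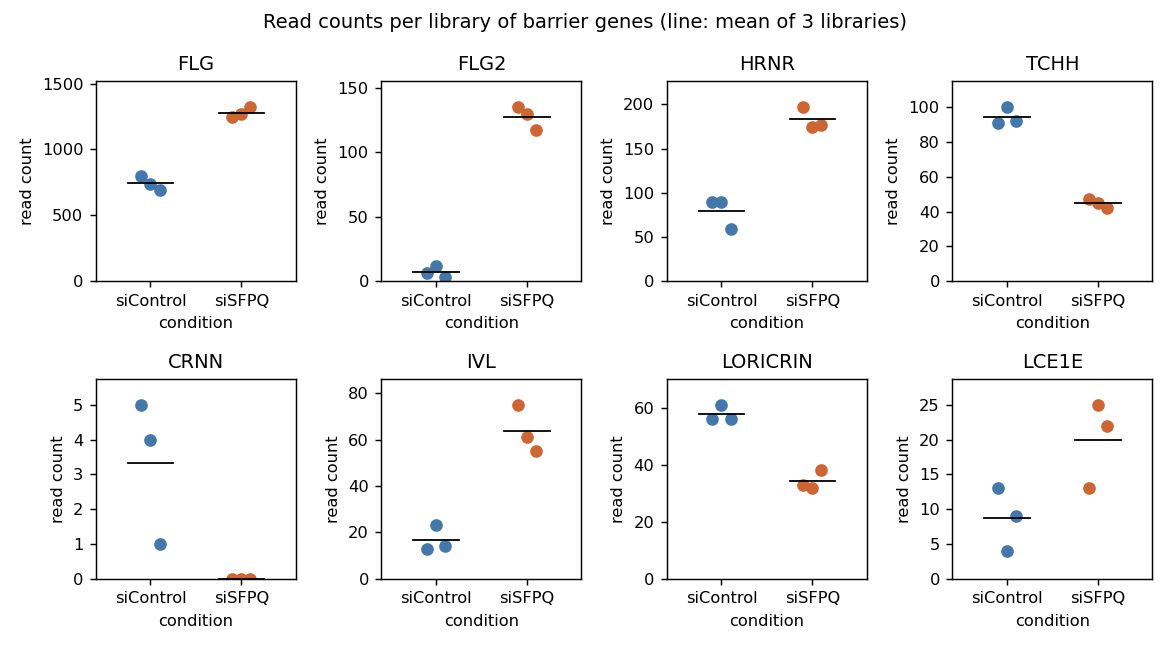
Read counts per library (y axis, each panel with its own scale from 0) of FLG, FLG2, HRNR, TCHH, CRNN, IVL, LORICRIN and LCE1E in siControl (blue) and siSFPQ (orange); lines are means of 3 libraries. FLG2 runs from 3 to 12 counts in siControl and from 117 to 135 in siSFPQ, TCHH and LORICRIN are lower in all siSFPQ libraries, and LCE1E shares a value of 13 between the conditions.

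The SPRR and LCE genes, the parts of the envelope that are cross-linked late, stayed near 0. Of 19 LCE genes, 9 had no count at all and 16 had at most 3 in every library, and of 11 SPRR genes the numbers were 6 and 9. Their 30 genes together held 32, 31 and 29 counts in siControl and 32, 52 and 54 in siSFPQ. LCE1E, with 13, 4 and 9 counts in siControl and 13, 25 and 22 in siSFPQ, was the only gene of these families that passed the test (log2 fold change 1.19, SE 0.49, adjusted p = 0.0488). siSFPQ replicate 1 equalled siControl replicate 1, and the result did not pass in several alternatives, among them DESeq2, protein-coding genes alone, and leaving out siControl replicate 2 or 3 or siSFPQ replicate 2 or 3.

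LCE1B had between 10 and 13 counts in siControl and between 8 and 15 in siSFPQ, and LCE1F between 4 and 6 and between 2 and 5. SPRR2D had 0, 0 and 4 counts in siControl and 3, 1 and 6 in siSFPQ, and SPRR2G 0, 6 and 0 against 1, 0 and 0, too few to be tested. All of these overlapped between the conditions. LCE and SPRR genes come as close copies of each other, and reads shared between copies may be left out or split, so that single values are uncertain. LCE7A, SPRR3 and SPRR2E, at 0 in each siControl library, reached at most 2 counts in siSFPQ.

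Along the chromosome, 55 of the 60 members lie in 1 stretch of 1649125 bases in 1q21.3, from 151982915 to 153632039 on GRCh38. Expressed and silent genes formed blocks. S100A10 and S100A11 at the proximal end, and the run from S100A6 to S100A1 at the distal end, held nearly all S100 reads, while the LCE and SPRR genes and the S100A9 to S100A7 group between them were near 0. The fused-type genes lie next to S100A11, and from TCHH to FLG2 the counts there went down, up, up and up, leaving out RPTN. CRNN, the next along, passed the count minimum only through siControl, so its direction is no result here. TCHH and HRNR, with the silent RPTN between them, thus changed in opposite directions, as did the neighbours S100A2 and S100A16.

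**Figure D4:**
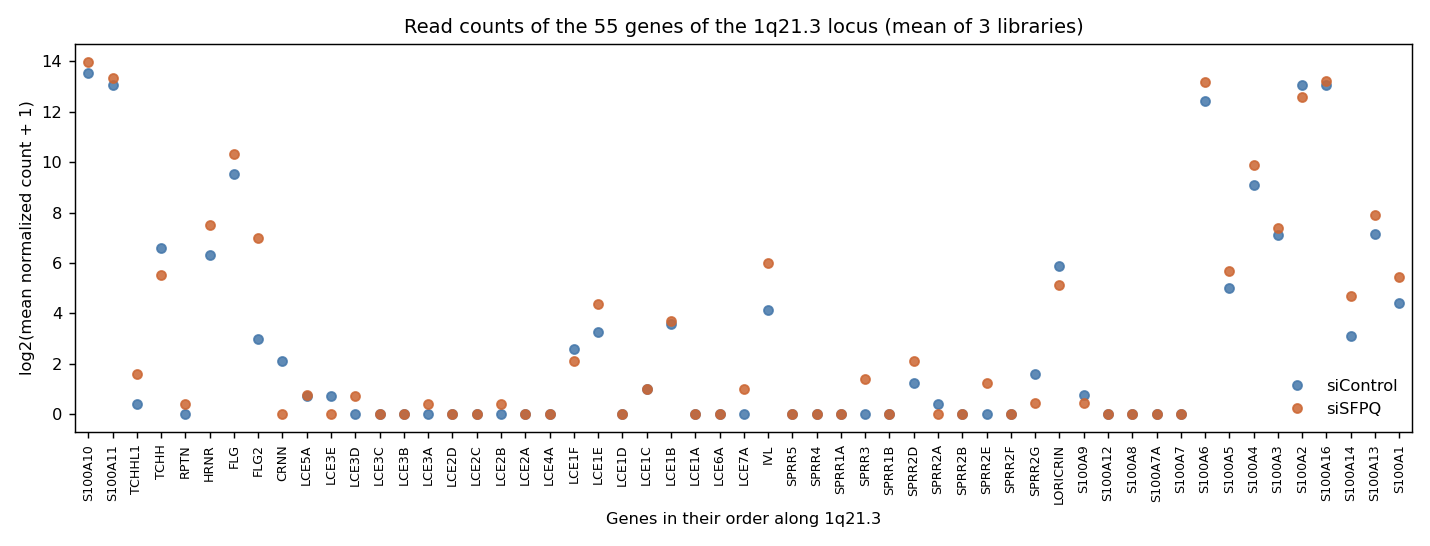
Mean normalized count of the 55 genes of the 1q21.3 cluster in their order along chromosome 1 (x axis; y axis, log2 of the mean of 3 libraries plus 1; blue siControl, orange siSFPQ). High points stand at both ends, near-zero points fill the LCE and SPRR region between them, and IVL and LORICRIN stand above their neighbours.

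The stretch also holds 35 annotated genes that are not members. Of these 8 were tested, of which 3 rose and 5 did not pass the test. Over all genes tested 22.4% rose, and 13.5% of those with a mean under 1 CPM did. FLG-AS1 rose without reaching the log2 fold change of 1.5, the 2 others that rose have a mean under 1 CPM, and all 3 are named after their values were seen. CCDST, a non-coding RNA between RPTN and HRNR, had 0, 8 and 8 counts in siControl and 43, 41 and 70 in siSFPQ (log2 fold change 3.23, SE 0.46, adjusted p = 4.41e-07). PRR9, a proline-rich gene next to LORICRIN, had 8, 4 and 5 counts in siControl and 33, 41 and 42 in siSFPQ (log2 fold change 2.74, SE 0.42, adjusted p = 1.39e-06). Both separated fully between the conditions, and for PRR9 the neighbouring LORICRIN fell.

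The further genes of barrier formation lie mostly elsewhere in the genome. In a list of 39 genes of the cornified envelope and granular layer, 26 were tested, 9 rose and 2 fell, with a median log2 fold change of 0.18. Of all genes tested 22.4% rose and 22.1% fell, with a median of 0.02, and the lists that follow are set beside the same shares. PI3 (elafin, a protease inhibitor joined to the envelope) had 0, 12 and 10 counts in siControl and 32, 31 and 39 in siSFPQ (log2 fold change 2.19), and CST6 (cystatin M/E) 20, 63 and 43 against 135, 133 and 157 (1.75). The proteases KLK14 and KLK7, which act in the shedding of the horny layer, rose by 1.52 and 1.42. TGM1, the main enzyme that cross-links the envelope, fell from 457, 494 and 550 counts to 316, 304 and 327 (log2 fold change -0.67, adjusted p = 3.05e-07), and KLK5, a protease of the same family, fell by 1.27, from 12, 33 and 23 counts to 9, 7 and 12. CASP14, which processes filaggrin, TGM3 and KPRP had at most 2 counts in every library, and CALML3, CALML5 and ASPRV1 had none.

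Of 19 desmosome and cell junction genes 14 were tested, 9 rose and 1 fell (22.4% and 22.1% of all genes tested), with a median log2 fold change of 0.52. JUP (plakoglobin) went from 1405, 1468 and 1356 counts to 4029, 4058 and 4290 (log2 fold change 1.54), and the tight junction gene CLDN4 from 372, 439 and 403 to 1353, 1301 and 1441 (1.75). GJB5 rose by 2.06 from few counts (1, 10 and 3 in siControl, 19, 29 and 12 in siSFPQ), and PKP1 had 0, 0 and 2 counts in siControl and 5, 8 and 5 in siSFPQ. PKP1 passed the count minimum only through siSFPQ, and with every siControl library under 3 counts no fold is given for it. CLDN1 fell by 0.56. The desmosomal cadherins of differentiated epidermis, DSG1 and DSC1, had at most 5 counts.

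Of 20 known regulators of these genes in skin 18 were tested, 5 rose and 3 fell, close to the shares of all genes tested (22.4% and 22.1%), with a median log2 fold change of 0.05. ZNF750 had 2, 6 and 2 counts in siControl and 21, 37 and 29 in siSFPQ (log2 fold change 3.07, adjusted p = 9.69e-06), and GRHL3 had 32, 28 and 34 against 96, 87 and 91 (1.54, adjusted p = 4.65e-07). JUNB, of the AP-1 family, rose by 0.56 and NOTCH1 by 0.50, while FOSL2, also of that family and the most abundant regulator on the list, fell by 0.38, CEBPB by 0.78 and MAF by 0.18. TP63, the master factor of stratified epithelia, had 1, 6 and 10 counts in siControl and 5, 11 and 13 in siSFPQ and did not pass the test, and KLF4 had at most 15.

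Among 19 partners and receptors of S100 proteins 17 were tested, 6 rose and 6 fell, with a median log2 fold change of -0.07. ANXA2, the partner of S100A10, fell from 154980, 159142 and 159171 counts to 123500, 132399 and 134337 (log2 fold change -0.28, adjusted p = 5.84e-09), while ANXA1, the partner of S100A11, rose by 0.27. S100A10 and ANXA2 therefore changed in opposite directions. The receptors TLR4 and AGER, which bind S100A8 and S100A9 or S100B among others, rose by 0.68 and 0.36, from 2623, 2657 and 2579 counts to 4179, 4249 and 4238 for TLR4. CD36, another receptor of S100A8 and S100A9, fell by 1.56, TRPV6 by 0.68 and ANXA11, a partner of S100A6, by 0.30. CACYBP, also a partner of S100A6, had between 5571 and 6213 counts and did not pass the test (adjusted p = 0.989), and PLAT, whose product is held at the cell surface by S100A10, rose by 0.45.

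**Figure D5:**
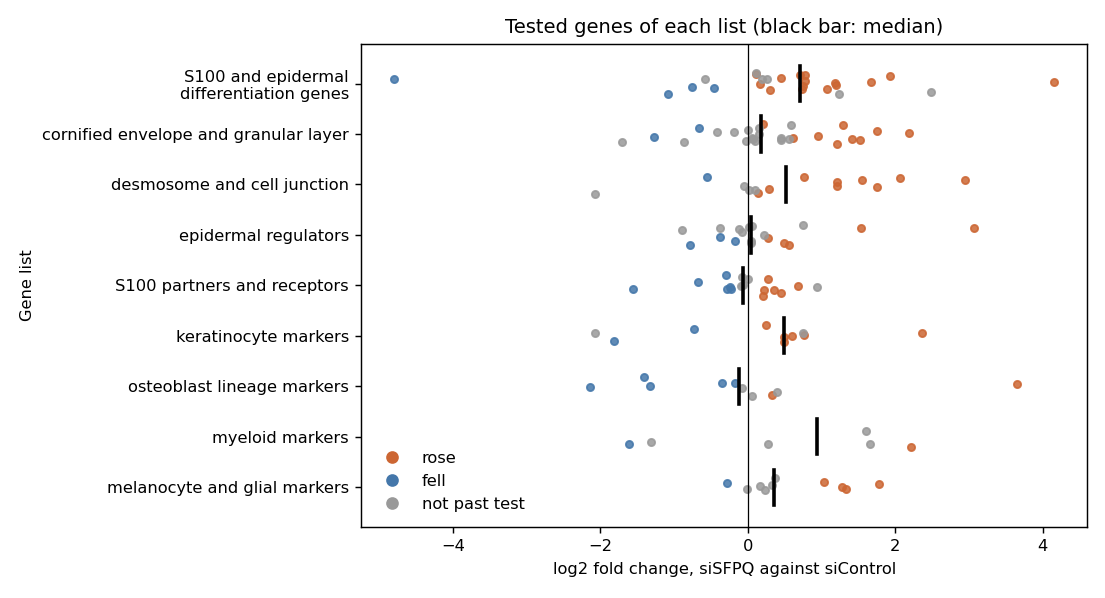
Log2 fold changes (x axis, siSFPQ against siControl) of the tested genes of each list (rows; points orange for genes that rose, blue for genes that fell, grey for genes that did not pass the test; black bars are medians). The 25 tested S100 and epidermal differentiation genes, S100P, CRNN and SPRR2D included, have a median of 0.70. The desmosome list has 0.52 and the cornified envelope list 0.18. Over the tested members whose exons overlap no other gene the median is 0.38. Every list holds both rising and falling genes.

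The markers of the labelled cell type were checked beside these values. COL1A1, SPARC and RUNX2, which mark the osteoblast lineage, were abundant, with at least 101230, 86929 and 2541 counts in each library, whereas IBSP, SP7 and BGLAP, also markers of that lineage, had at most 1, 5 and 6. COL1A2 and ALPL, of the same list, were low, with 31 to 55 and 128 to 195 counts, and did not pass the test. BGLAP (osteocalcin) had 0, 0 and 1 counts in siControl and 5, 6 and 6 in siSFPQ and was called higher (adjusted p = 0.0199). It passed the count minimum only through siSFPQ, has no fold given here since every siControl library is under 3 counts, and shares exons on the same strand with PMF1-BGLAP, so that reads there cannot be told apart. Of 12 osteoblast lineage markers 10 were tested, 2 rose and 5 fell. Beside BGLAP, VIM rose, by 0.32. RUNX2 did not pass the test (log2 fold change 0.06, adjusted p = 0.295), COL1A1 fell by 0.35, SPP1 by 1.33, POSTN by 1.41, and CDH11, an osteoblast cadherin, by 2.14.

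Keratinocyte markers were present in both conditions. Their list summed to less than that of the osteoblast lineage (6215 and 5501 CPM, of which COL1A1 made up 46.8% and 41.4%). Of 12 such markers 10 were tested, 6 rose and 2 fell, and the list summed to 316 ± 13.5 CPM in siControl and 363 ± 14.5 in siSFPQ, of which SFN made up 73.9% and 76.4%. KRT15 rose by 2.36 (85, 95 and 97 counts to 521, 411 and 495), CDH1 by 0.76 and KRT5 by 0.59, while KRT14, its partner in the basal layer, fell by 1.82 (712, 691 and 663 to 180, 216 and 191) and KRT10, of the layer above, fell by 0.73. KRT1, which pairs with KRT10 in differentiating epidermis, was at 0 in all libraries, and DSC3 had between 0 and 5 counts. The keratinocyte markers thus moved with the condition as well, and their part in the result was not tested.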

How the data were processed

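The authors checked the reads (paired, 150 bases, stranded mRNA kit) with FastQC, aligned them with STAR 2.7.9a to Ensembl GRCh38 and deposited raw read counts per gene, not pooled or normalized. The strand setting of the counting is not given in the sources used here. Symbols, classes, exons and positions come from GENCODE 44, which matched 60463 of 60664 identifiers (99.67%), and promoters from RefSeq. The count test was that of edgeR 4.0.16 under R 4.3.3 (quasi-likelihood, TMM, at least 10 counts in total, no covariate, Benjamini-Hochberg over all genes tested), with each SE taken as the fold change over the square root of F. The script was tested on simulated data.

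The members and the gene lists were chosen with earlier results of these data known. The genes named are SFPQ, members with more than 3 counts in a library, up to 4 genes of a list with the largest change in each direction past the test, and markers of the cell line. Genes of 1q21.3 other than members were to be named where called at 1 CPM or more, but there were none. FLG-AS1, CCDST and PRR9 are named after their values were seen, and others as examples at or near 0. No list or sum was tested. The replicates of a condition differed by more than sampling noise and were counted as separate. The alternatives were other filters, scalings, thresholds and gene sets, DESeq2 1.42.0, a replicate block and each library left out. There were 0 columns of per-sample values left unused.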

Additional observations from a re-analysis of the deposited data

How the results depend on the processing

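Of the 19 members that rose or fell, 15 kept their direction and passed the test in every alternative in which they were tested. The other 4 (S100PBP, CRNN, LCE1E and S100A5) lost the test in some, and none turned its direction. Fold changes of members that had not passed turned for LCE1B without siSFPQ replicate 3 (range with single libraries left out -0.058 to 0.33) and for S100B without siControl replicate 2 (-0.37) or siSFPQ replicate 1 (range -0.62 to 1.31), and S100P passed without siControl replicate 3. The count of members that rose lay between 10 and 15. The 10, of 20 tested, came from leaving out members whose exons overlap another gene, of which 5 were tested and 5 rose. That alternative was added after seeing the data, as was the one without S100PBP (14). Members called higher numbered 6 at a threshold of 1 and 1 at a threshold of 2. Members called lower numbered 0 with filterByExpr, DESeq2 or the replicate block, 2 at a threshold of 1, and between 0 and 0 with single libraries left out. Genes called higher numbered 967 with filterByExpr and 581 among protein-coding genes alone, where 830 were called lower, fewer genes being tested. Genes of the cornified envelope list that fell numbered 1 with DESeq2 and 1 to 2 with single libraries left out, osteoblast markers that rose 1 with filterByExpr and 1 to 3 with single libraries left out, and other genes of 1q21.3 that rose 1 among protein-coding genes alone.

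With the replicate number as a block 1419 genes were called higher and 1240 lower, and 14 members rose and 3 fell, since the block removed LCE1E and CRNN and changed no other member's call. Deviations of same-numbered libraries correlated at -0.003, 0.088 and 0.055, and those of the other pairs at between -0.080 and 0.025. With 3 libraries per condition these values cannot decide whether the numbers stand for pairs. Scaling by library size alone moved the median of all genes by 0.063 and turned no member. At this depth genes at 3 counts or fewer cannot be compared.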

Other observations

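Besides the 60 protein-coding members, 17 genes of other classes carry a symbol of the same start. Of these 14 had at most 3 counts in every library, among them the pseudogenes S100A7P1 and LCEP1 to LCEP4, which had 0 throughout. S100A11P2, a processed copy of S100A11, had 13, 1 and 12 counts in siControl and 13, 11 and 11 in siSFPQ (log2 fold change 0.42, adjusted p = 0.623). S100A11 itself had at least 8326 counts in each library. FLG-AS1 was the only gene of these classes that passed the test.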
